A study of Mus musculus with 8 samples.

Results

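The array carried probes for long intergenic transcripts that have no gene name in the probe annotation. Each is known by the genomic interval it lies in and by a letter, F or R, for its strand. Intervals of 10 kb or more were taken, a span of at least 10000 bases between the start and the end in the probe's own annotation. Of the 9577 probes for such intervals, 3402 had a signal well above background on 4 or more of the 8 arrays, and these are the members described here. They came from 1148 of the 1576 intervals and from 1546 of the 2408 interval strands (an interval read on 1 strand). They made up 11.1% of the 30759 probes that passed the same filter, out of 55681 on the array. Interval coordinates are in the mouse build mm9, which the headers of 4 of the arrays name; the sources do not say whether F and R mark the strand of the transcript or of the probe.

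RNA came from whole CD-1 mouse embryos (an outbred stock) on gestational day 9. The dams had been injected intraperitoneally with saline or with 400 mg/kg hydroxyurea, and the embryos were explanted 3 h later. There were 4 saline and 4 hydroxyurea samples, each on its own 1-colour array, with 2 samples of each group on each of 2 slides. The labels give neither the number of embryos or litters behind a sample nor any pairing between the groups, so the p-values measure the spread between these samples.

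Hydroxyurea inhibits ribonucleotide reductase, which supplies the deoxynucleotides for DNA synthesis, and so stalls replication and activates p53. Long intergenic noncoding RNAs are transcripts outside protein-coding genes that are usually spliced and often less abundant than messenger RNAs. Some act at their own locus on neighbouring genes, others elsewhere in the nucleus or in the cytoplasm, and some are transcribed in the DNA damage response. An interval is a region of transcription, not a transcript model, so a probe may fall in an exon or in an intron of the RNA made there, and several probes of an interval share their target region. The annotation does not say which gene lies nearest, and the intervals were not matched to genes.

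Whole embryo RNA holds all tissues, so fewer cells of a type and less RNA per cell cannot be told apart. All 16 markers listed for embryonic blood, heart, neural tissue, mesoderm, endothelium and tail bud were well above background on 8 arrays, and 0 of them were called changed. The endothelial markers Kdr and Cdh5 differed by -1.16 (adjusted p = 0.088, limma) and -0.76 (adjusted p = 0.11), and the neural markers Sox2, Pax6 and Sox1 by -0.51, -0.70 and -0.40 (adjusted p = 0.079, 0.11 and 0.24). The p53 target Cdkn1a, which encodes an inhibitor of the cell cycle, was higher with hydroxyurea by 3.02 on the log2 scale (SE 0.24, adjusted p = 0.00039, limma). Ccng1, which encodes cyclin G1 and is another p53 target, was higher by 3.20 (SE 0.14, adjusted p = 3.6e-05). Of 8 markers of yolk sac, trophoblast and decidua, 7 had a named probe, 4 were well above background on 8 arrays and 0 were called. The summed linear signal of the 4 named trophoblast and decidua markers was 2.04 to 2.74 on the saline arrays. It was 1.91, 13.3, 70.2 and 3.52 on hydroxyurea 1 to 4, with Tpbpa, a defining marker of the spongiotrophoblast, well above background on 0 arrays. Over all 7 markers, yolk sac included, the sum ran from 13.8 to 145 in saline and from 25.3 to 79.8 with hydroxyurea. The decidual gene Prl8a2 and the trophoblast giant cell gene Prl3d1 carried the high sums of hydroxyurea 2 and 3. The part of any of these markers in the results below was not tested, and the counts without these arrays are given beside the first of them.

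Long interval transcripts that changed were mostly lower in embryos exposed to hydroxyurea. A probe was called at an adjusted p under 0.05 in limma, with the Benjamini-Hochberg adjustment over all 30759 probes. By that rule 551 of the 3402 members (16.2%) were lower and 36 (1.06%) were higher, against 4.29% lower and 2.52% higher over all probes tested. The median difference of the members was -0.33 on the log2 scale (interquartile range -0.81 to 0.10), beside 0.02 over all probes tested, and 70.4% of the members lay below 0. With normexp background correction the median was -0.080, beside 0.041 over all probes. The 551 lower members were 41.7% of all probes called lower, and the 36 higher members were 4.64% of those called higher. Without both hydroxyurea 2 and 3, 941 members (27.7%) were lower and 94 (2.76%) higher, beside 9.47% and 5.88% of all probes.

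For intervals under 10 kb, named in the same way, 185 of 2273 probes (8.14%) were lower and 34 (1.5%) higher, with a median of -0.18. Among the remaining probes, most of them for named genes, 585 of 25084 (2.33%) were lower and 706 (2.81%) higher, with a median of 0.06. The shares of these classes were not compared by a test, since probes of an interval share their target and samples are the replicates.

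**Figure D1:**
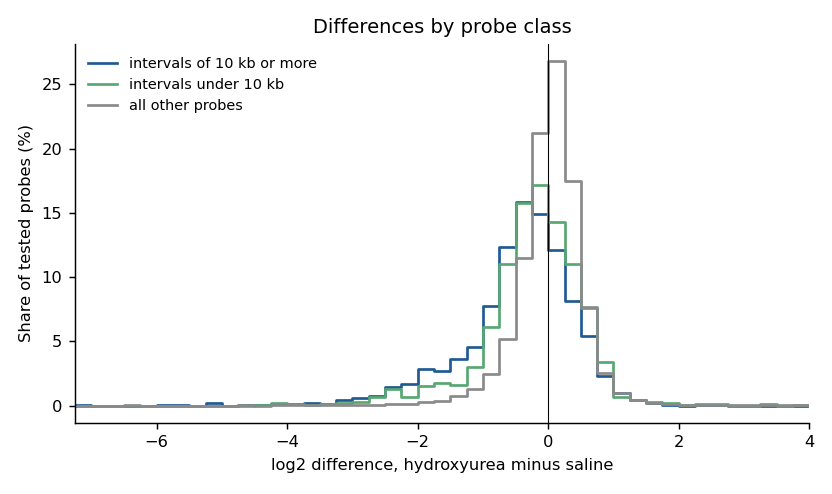
Share of tested probes (%, y axis) by log2 difference, hydroxyurea minus saline (x axis, bins of 0.25), for the 3402 probes of intervals of 10 kb or more, the 2273 probes of shorter intervals and the 25084 other probes. The curve of the long intervals is shifted to the left of 0, with a median of -0.33 and a tail of falls beyond 2 on the log2 scale.

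The measured median difference of the 551 lower members was -1.72, and 488 of them were lower by at least 1 on the log2 scale, 185 by at least 2 and 18 by at least 4. These sizes include dim signals: 88 of the 551 were well above background on 0 hydroxyurea arrays, where a difference has no exact size. Among the 299 above background on all 4 hydroxyurea arrays, the median was -1.58, with 250 lower by at least 1 and 71 by at least 2. With normexp, a background correction that compresses dim signals, the median of the 551 was -0.83, with 219 lower by at least 1 and 34 by at least 2. The median difference of the 36 higher members was 0.90, and 13 were higher by at least 1. In 579 of the 587 called members the 4 hydroxyurea and 4 saline values did not overlap. Over all members the groups did not overlap in 877 (25.8%), beside 15.8% of all probes tested. The median difference of all members was -0.30 on slide 1 and -0.38 on slide 2, and 0 members had a treatment effect that differed between the slides at an adjusted p under 0.05 in limma's interaction test (54, or 1.59%, at an unadjusted p under 0.05).

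The filter on dim probes bears on these counts. A member that passed it through the saline arrays alone had to be lower with hydroxyurea: 98 members were well above background on 4 saline and 0 hydroxyurea arrays, and 88 of these were among the 551, while 1 member had the reverse pattern. Among the 1986 members well above background on every array, 299 (15.1%) were lower and 30 (1.51%) higher. At that detection level the shares were 6.64% and 1.83% for shorter intervals and 1.98% and 2.95% for the remaining probes. With the test run on probes above background on every array alone, 17% of members were lower and 2.27% higher, beside 4.14% and 3.73% of all such probes. With no filter, 327 of all 9577 long-interval probes (3.41%) were lower and 13 (0.136%) higher, beside 1.14% and 0.499% of all probes. The median difference of those 9577 probes was 0.02, on the other side of 0 from the members' median, and that of all 55681 probes was 0.11.

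Detection moved with the counts. On the saline arrays 44.9%, 42.1%, 32.1% and 35.5% of the 9577 long-interval probes were well above background, and on hydroxyurea 1 to 4 it was 32.9%, 36.1%, 23.6% and 32.2%. Probes of shorter intervals gave close to the same shares, 44.0%, 39.3%, 30.0% and 33.9% in saline and 33.4%, 36.1%, 23% and 32.6% with hydroxyurea. For all other probes the shares were 61.0% to 68.1% in saline and 56.8% to 64.4% with hydroxyurea. For the long intervals the ranges of the groups overlap, and within each slide the saline arrays were at or above the hydroxyurea arrays except that hydroxyurea 4 (32.2%) stood just above saline 3 (32.1%). The members' median signal, taken relative to each probe's saline mean, was -0.40, -0.09, -0.38 and -0.54 on hydroxyurea 1 to 4 and -0.01, 0.12, -0.10 and 0.03 on saline 1 to 4, so hydroxyurea 2 lay within the saline range by this measure. Hydroxyurea 2 was also the highest hydroxyurea array in 307 of the 549 lower members with a value on all arrays, and saline 1 the lowest saline array in 374. Without hydroxyurea 2, 879 members (25.8%) were lower and 83 (2.44%) higher, beside 8.61% and 7.2% of all probes. Without saline 1 the counts were 430 (12.6%) and 20 (0.588%), beside 2.94% and 1.31% of all probes. Without hydroxyurea 3 they were 456 (13.4%) and 38 (1.12%), beside 3.23% and 1.62% of all probes. The counts were 331 lower and 12 higher without hydroxyurea 1, and 304 and 9 without hydroxyurea 4. They were 308 and 15 without saline 2, 323 and 13 without saline 3, and 352 and 37 without saline 4. In the settings without hydroxyurea 1, hydroxyurea 4, saline 2, saline 3 or saline 4, 8.94% to 10.3% of members were lower and 0.265% to 1.09% higher. The shares of all probes there were 1.97% to 2.44% lower and 0.839% to 1.43% higher.

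**Figure D2:**
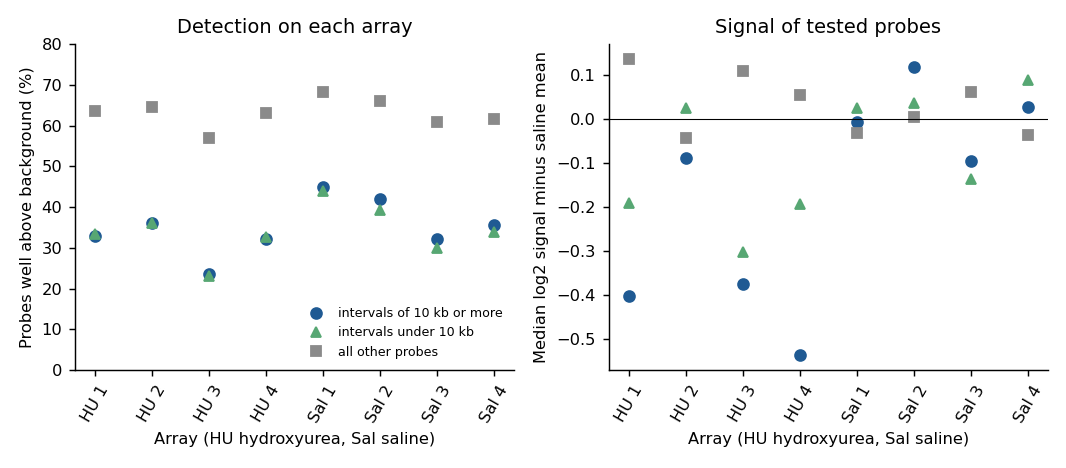
Left, share of probes well above background (%) on each of the 8 arrays by probe class; right, median log2 signal of the tested probes relative to their mean over the saline arrays. Points are single arrays, and the long intervals lie between -0.54 and -0.09 on the hydroxyurea arrays.

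Levels below are scaled signals: log2 of the processed signal minus the array's 75th percentile, so 0 is a probe as bright as that percentile. The largest fall was that of a probe on strand R of chr4:35106125-35127700, an interval of 21575 bases. Its signal was 2.59, 3.43, 3.97 and 4.10 on saline 1 to 4 and -4.09, -2.23, -3.30 and -4.55 on hydroxyurea 1 to 4. It lay above the 75th percentile on every saline array and below it on every hydroxyurea array, though still above background there. The difference was -7.06 (SE 0.51, adjusted p = 0.00021, limma), a 134-fold fall. It was the single member among the 4 probes on that strand, the other 3 having failed the filter.

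A probe on strand R of chr16:39984031-40081556, which spans 97525 bases, also lay above the 75th percentile in saline. Its signal was 4.37, 4.18, 5.55 and 5.26 on the saline arrays and -0.56, 0.84, -0.16 and -0.81 on the hydroxyurea arrays. All 4 hydroxyurea values lay more than 3 log2 units below all saline values, with a difference of -5.01 (SE 0.42, adjusted p = 0.00039), or 32.3-fold. The other 3 members of that strand differed by -0.99 to -0.46, and 0 of them were called. At strand F of chr12:81221532-81232030 the saline values of a single member were 1.42, 1.85, 1.41 and 1.24. With hydroxyurea they were -4.94, -2.35, -5.11 and -5.15, the higher of these being hydroxyurea 2, and 2 of the 4 arrays measured the probe above background. The difference was -5.87 (SE 0.57, adjusted p = 0.0010).

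Of the 10 largest falls, 5 were from probes that no hydroxyurea array measured above background. These passed the filter through the saline arrays alone, so a fall was built in. Their size is given as a lower bound on the scale of the processed signal. The bound sets the mean saline signal against the dimmest signal that was well above background on each hydroxyurea array, or the probe's own where that was higher. The probe on strand R of chr7:66562376-66579519 fell at least 21.5-fold, that on strand F of chr8:67542714-67561694 at least 17.5-fold, and those on strand R of chr1:82892851-82943201 and chr7:113768215-113783490 at least 14.3-fold each. The probe on strand F of chr7:99879368-99889978 fell at least 9.16-fold. These bounds hold for the processed signal alone, since with normexp the differences of these probes were smaller than the bounds. The saline values at the chr7:66562376-66579519 probe were -1.73, -0.24, -0.32 and -0.05, with saline 1 apart from the rest, and the hydroxyurea values were -6.28, -4.88, -5.12 and -6.56.

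The remaining 2 of the 10 were above background on 1 hydroxyurea array each, so their measured differences rest mostly on values not above background. A probe on strand F of chr19:5771425-5848475 went from a mean of -0.34 ± 0.25 (SD, n = 4) to -5.46 ± 1.41 (SD, n = 4), a difference of -5.12 (SE 0.59, adjusted p = 0.0021). For a probe on strand F of chr11:3538125-3554450 the means were -0.33 ± 1.05 and -5.42 ± 1.19, a difference of -5.08 (SE 0.65, adjusted p = 0.0033). Normexp kept all 10 calls with smaller sizes: the difference was -5.45 at chr4:35106125-35127700, -4.67 at chr16:39984031-40081556 and -3.78 at chr12:81221532-81232030, and between -2.32 and -1.57 at the other 7.

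**Figure D3:**
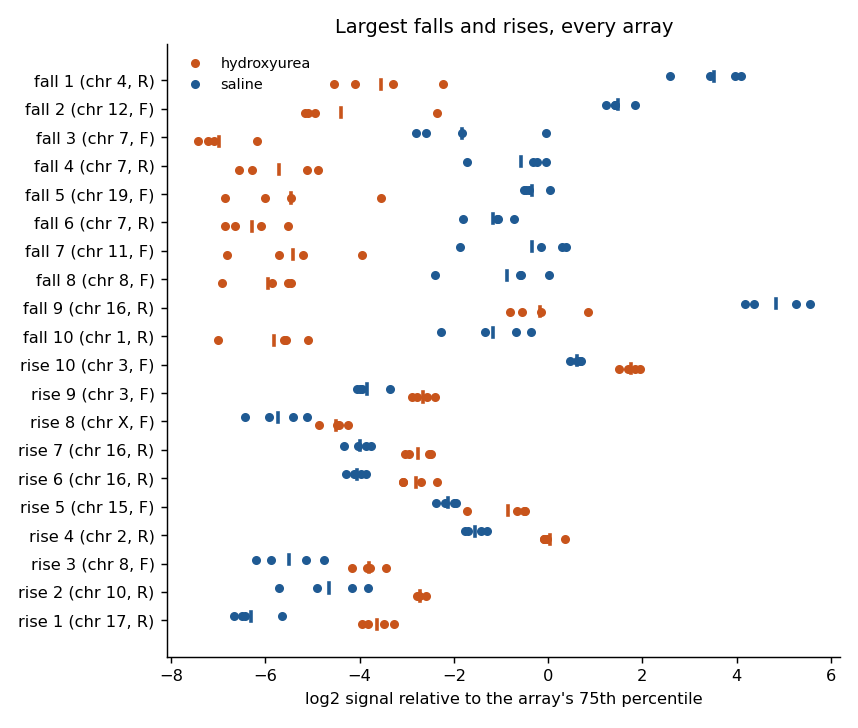
Scaled log2 signal (x axis) of the 10 largest falls and the 10 largest rises among members called with groups that do not overlap, with 1 point per array and a bar at each group's mean (n = 4). Falls are numbered from the largest at the top, rises from the largest at the bottom; the top line is the strand R probe of the chromosome 4 interval, at -7.06, and the bottom line the strand R probe of the chromosome 17 interval, at 2.68.

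Probes along a strand of an interval did not always move together. Among the 841 interval strands with at least 2 members, all members lay below 0 in 450, all above 0 in 127 and on both sides of it in 264. There were 239 such strands with at least 1 lower member; every member was below 0 in 199 of them and every member was called lower in 50. Of the 10 largest falls, 8 had other members on the strand, and at 4 of these a further member was called lower. On strand F of chr19:5771425-5848475, in contrast, the 7 other members differed by -1.09 to -0.39 with 0 called.

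Some strands fell along their whole probed length. All 9 probes on strand R of chr17:24152225-24169870 were members and all 9 were called lower, with differences from -3.15 to -1.64. Their mean signal was -2.26, -0.84, -1.22 and -0.77 on saline 1 to 4 and -3.72, -3.55, -3.11 and -4.0 on hydroxyurea 1 to 4. Every hydroxyurea array lay below every saline array, and saline 1 was the lowest of its group (difference of the mean -2.32, SE 0.34, adjusted p = 0.0055).

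At chr11:3538125-3554450, 8 of 9 strand F members were lower, with differences from -5.08 to -0.72. Strand F of chr1:183783306-183834531, a 51225-base interval, also had 8 of 9 members lower. There the mean over probes was -3.42 ± 0.20 (SD, n = 4) in saline and -5.03 ± 0.14 (SD, n = 4) with hydroxyurea, a difference of -1.61 (SE 0.15, adjusted p = 0.00092) that was larger than the spread within either group. In all, 115 interval strands had at least 2 lower members and 63 had at least 3.

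Other strands with many members were mixed. Strand F of chr4:129497990-129515290 had 10 members with 0 called, and their mean was -1.92 ± 0.63 in saline and -1.43 ± 0.46 with hydroxyurea (SD, n = 4 each; difference 0.49, SE 0.34, adjusted p = 0.40). Strand F of chr5:74487385-74497428 had 1 of 10 members lower and a mean difference of -0.31 (SE 0.25, adjusted p = 0.48). Strand R of chr6:116092274-116144199 had 5 of 10 lower, with differences from -3.08 to 0.46 and a mean difference of -1.19 (SE 0.22, adjusted p = 0.017). With the mean of its members standing for each interval strand, 241 of 1546 (15.6%) were lower and 15 (0.97%) higher, beside 3.54% and 2.70% of all features treated in this way.

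The lower members were spread over many places. They lay in 297 intervals, and since 314 of the 1148 member intervals overlap another, in 292 of 977 separate loci. The 36 higher members lay in 25 intervals and 21 loci. A single interval strand held both a lower and a higher member, strand R of chr5:100845342-100869667, where 7 members differed by -1.44 to 1.08 around a mean difference of 0.09 (SE 0.26, adjusted p = 0.86); it was singled out after its values were seen.

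The largest rise was on strand R of chr17:29192453-29216073, an interval of 23620 bases. Its probe was not well above background on any saline array (-6.43, -6.49, -6.68 and -5.64) and was so on all hydroxyurea arrays (-3.48, -3.82, -3.26 and -3.95). It passed the filter through the hydroxyurea arrays alone, so a rise was built in, and the separation of the groups is not separate support for it. On the scale of the processed signal the rise was at least 2.57-fold (measured difference 2.68, SE 0.26, adjusted p = 0.00093). With normexp background correction the difference was 0.44 and the call was lost (adjusted p = 0.24). The other member of that strand differed by 0.66 and was not called. In the RefSeq table for another build, GRCm38.p6, chromosome 17 holds Cdkn1a and, next to it, Trp53cor1, the p53-induced noncoding RNA also called lincRNA-p21; whether this interval holds it was not tested, since no mm9 gene annotation was used.

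Other rises came from probes measured on every array. On strand R of chr2:104398943-104412968 a probe measured on all arrays went from -1.76, -1.43, -1.29 and -1.70 in saline to -0.08, 0.37, -0.09 and -0.03 with hydroxyurea. All hydroxyurea values lay above all saline values, and the rise of 1.59 (SE 0.18, adjusted p = 0.0018) kept its call under all alternatives except either slide alone. For a probe on strand F of chr3:62727150-62758225 the saline values were 0.70, 0.60, 0.68 and 0.46 and the hydroxyurea values 1.96, 1.5, 1.84 and 1.69. Both groups were tight and apart (difference 1.14, SE 0.15, adjusted p = 0.0041), yet the other member of the strand differed by -0.87 and the mean of both by 0.13 (adjusted p = 0.71).

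At 7 interval strands at least 2 members rose, and these are the places where the rise did not rest on a single probe. All 3 members on strand R of chr16:59556175-59603176 were higher, by 0.85 to 1.26. Their mean was -3.87, -4.26, -3.96 and -4.19 in saline and -3.06, -3.26, -2.82 and -2.67 with hydroxyurea, with no overlap (difference 1.12, SE 0.17, adjusted p = 0.0077). The 2 larger of these single probes lost their calls with normexp (0.44 and 0.46; adjusted p = 0.17 and 0.13). A separately probed interval lying inside chr16:59556175-59603176 had a strand R mean that differed by 0.34 and was not called. All 3 members on strand F of chrX:20555593-20591971 were higher, by 0.68 to 1.21 (mean difference 0.92, SE 0.15, adjusted p = 0.0083), the largest of them on 4 arrays above background and without a call under normexp (0.30, adjusted p = 0.42), in the fit blocked by slide (adjusted p = 0.057) and under several other alternatives.

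Overlapping intervals on chromosome 10 carried 6 of the 36 rises. On strand F of chr10:83185606-83225506 all 3 members were higher, by 0.70 to 0.95, and on strand F of chr10:83181374-83249774, which contains it, 3 of 5 were. The mean of the former was 0.79, 0.48, 0.75 and 0.76 in saline and 1.58, 1.22, 1.62 and 1.74 with hydroxyurea, every hydroxyurea array being above every saline array (difference 0.84, SE 0.16, adjusted p = 0.017). The rise was not shared by every overlapping interval. A further interval, with the same start as chr10:83181374-83249774, had a strand F mean that differed by -0.41 and was not called. Both members on strand R of chr10:121498271-121512171 rose, by 1.09 and 1.94, the latter losing its call without hydroxyurea 1 (adjusted p = 0.051). Both members on strand F of chr6:57583950-57624216 rose, by 0.84 and 1.02, and the means of -3.31 ± 0.08 in saline and -2.38 ± 0.12 with hydroxyurea (SD, n = 4 each) were well separated (difference 0.93, SE 0.13, adjusted p = 0.0050). On strand R of chrX:135880775-135891525, 2 of 5 members rose (mean difference 0.65, SE 0.15, adjusted p = 0.039).

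The other rises among the 10 largest came from probes whose neighbours were not called. A probe on strand F of chr8:34646787-34680312, above background on 3 hydroxyurea arrays and 1 saline array, differed by 1.68 (SE 0.32, adjusted p = 0.016; 0.47 and adjusted p = 0.18 with normexp). At chr15:61984389-62102500, an interval of 118111 bases, a strand F probe went from -1.99, -2.20, -2.39 and -1.95 to -0.66, -0.49, -1.71 and -0.51 (difference 1.29, SE 0.28, adjusted p = 0.027). Its call depended on most arrays: leaving out hydroxyurea 1, hydroxyurea 4 or any single saline array ended it, with adjusted p from 0.054 to 0.088. It was also lost with no filter on dim probes (adjusted p = 0.080) and with the mean of the strand's members (0.44, adjusted p = 0.20). The other 4 members there differed by -0.61 to 1.48. A probe on strand F of chr3:137736327-137752677 differed by 1.18 (SE 0.20, adjusted p = 0.011; 0.47 and adjusted p = 0.099 with normexp).

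Strands could be compared at the 398 intervals with a member on each strand. Of the 832 intervals probed on both strands, a further 166 had members on F alone, 163 on R alone and 105 on neither. The test took, within each array, the mean signal of the F members minus that of the R members and compared this difference between the groups in limma, so no probe's level was set against another's. The change with hydroxyurea differed between the strands at 115 of the 398 intervals (28.9%; 76 without hydroxyurea 4), beside 27.7% of the 516 intervals of any length tested together, and at 28 of 118 shorter intervals (23.7%). The 516 include the 398, so the shorter intervals are the separate comparison; no test was made between these shares.

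At the 115 intervals the difference was mostly a fall on a single strand. The median change of the lower strand was -1.54 (interquartile range -1.97 to -1.13), and 94 of these strands fell below -1. The median change of the opposite strand was 0.11 (interquartile range -0.18 to 0.37), with 72 of 115 above 0 and a range from -0.88 to 1.30. The lower strand was named from these same values at intervals picked for a strand difference, so a gap between the medians is built in. By the mean over its members, the lower strand was called lower at 85 and the opposite strand called higher at 2. F was the lower strand at 69 and R at 46. The strands differed by at least 2 log2 units at 27, and at 94 the F minus R values of the groups did not overlap.

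Calls on both strands of an interval were few. Of the 398 intervals, 4 had both strands called lower, and 124 had one strand lower and the other not called; the strand difference itself passed the test at 84 of those 124. Both changes lay below 0 at 240 intervals, both above 0 at 14, and the signs were opposite at 144. Across the 398 intervals the changes on F and R had a Pearson r of -0.18 and a Spearman rho of -0.25; this is across intervals measured on the same 8 arrays and is a description.

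**Figure D4:**
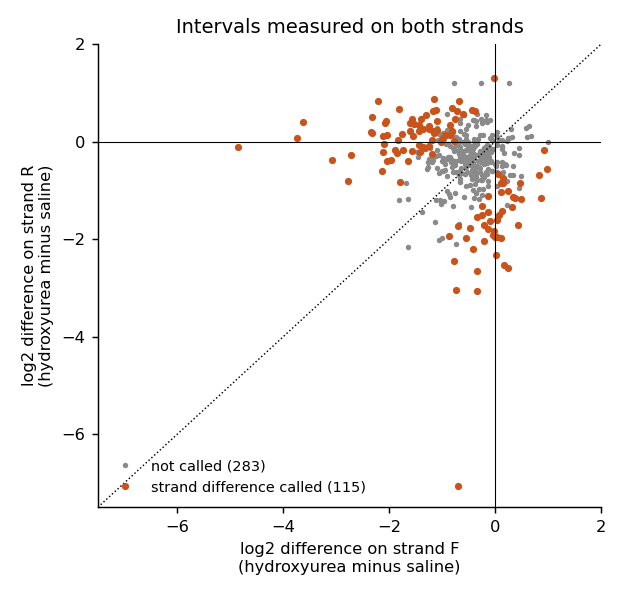
Log2 difference, hydroxyurea minus saline, on strand F (x axis) and strand R (y axis) of the 398 intervals of 10 kb or more with a member on each strand; points on the dotted line changed equally. The 115 intervals with a called strand difference lie in 2 arms, each with 1 strand near 0 and the other falling, to -7.06 at the lowest.

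The interval chr4:35106125-35127700, which held the largest fall, had the lowest p in this test. Strand R fell by 7.06, while the F member was -0.74, -0.26, -1.14 and -0.87 in saline and -1.22, -1.06, -1.73 and -1.81 with hydroxyurea, where the groups overlapped (difference -0.70, SE 0.24, adjusted p = 0.12). The change on F minus that on R was 6.36 (SE 0.52, adjusted p = 0.00012).

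At chr13:94182877-94203852 the 3 F members fell and the 4 R members did not. Their F mean was -4.05, -1.89, -2.77 and -1.93 in saline and -6.40, -6.33, -5.82 and -6.63 with hydroxyurea, and their R mean was -4.15, -3.97, -4.13 and -3.94 against -3.40, -3.94, -3.64 and -3.58. F was lower on every hydroxyurea array (difference -3.63, SE 0.44, adjusted p = 0.0026). R lay slightly above saline on every hydroxyurea array (0.41, SE 0.15, adjusted p = 0.15). The strand difference was -4.04 (SE 0.45, adjusted p = 0.00060), and -1.07 under normexp. The F signal with hydroxyurea was dim, and the pair could not be tested with every array required above background. The -3.63 and -4.04 are therefore measured values and not exact sizes.

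At chr12:55844075-55898175 all 3 F members were lower, with a mean difference of -2.33 (SE 0.29, adjusted p = 0.0030), and the 5 R members differed by 0.11 to 0.31 with 0 called. At chrX:90997595-91009570, 2 of 4 F members were lower and 1 of 9 R members was higher. Their means differed by -2.33 on F and 0.50 on R, where the R mean itself was not called (SE 0.16, adjusted p = 0.094). The strand differences were -2.51 (SE 0.29, adjusted p = 0.00062) and -2.83 (SE 0.33, adjusted p = 0.00065).

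At chr7:99879368-99889978 both F members fell, with a mean difference of -4.85, and the 6 R members differed by -0.62 to 0.29. The strand difference there was -4.73 (SE 0.60, adjusted p = 0.00088). Both F members were well above background on 0 hydroxyurea arrays, so the F difference and the strand difference are measured values past the dimmest signal that could be told from background. Both passed the filter through the saline arrays alone, so a fall on F was built in and the p of this strand difference is not separate support. These 5 strand differences kept their sign and their call under the alternatives that could test them, other than either slide alone. With all 8 arrays required above background, 2 of the 5 could be tested: chromosome 4 at 6.36 and the X chromosome at -1.23. Their size did depend on the background correction: under normexp they were 4.90 on chromosome 4, -1.07 on chromosome 13, -1.03 on chromosome 12, -0.95 on the X chromosome and -1.49 on chromosome 7.

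Over all members, strand F held 303 lower of 1647 (18.4%) with a median difference of -0.41, and strand R 248 of 1755 (14.1%) with a median of -0.26. The higher members numbered 16 on F and 20 on R. These shares are descriptions. The within-array comparison above tests the strands interval by interval, and no test was made of F against R over all members.

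Length bore little relation to the change. Lengths ran from 10000 to 533971 bases, with a median of 25198.5 over member intervals. The share of lower members was 12.7% (97 of 765) for intervals of 10 to 15 kb, 20.3% (188 of 924) for 15 to 25 kb and 14.9% (131 of 882) for 25 to 50 kb. It was 18.5% (113 of 610) for 50 to 100 kb and 9.95% (22 of 221) for 100 kb or more. The median difference lay between -0.36 and -0.32 in all 5 classes, and the Spearman rho of length and difference across members was 0.02, a description over probes that share intervals and arrays. Higher members were most frequent at 25 to 50 kb, with 18 of 882 (2.04%).

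**Figure D5:**
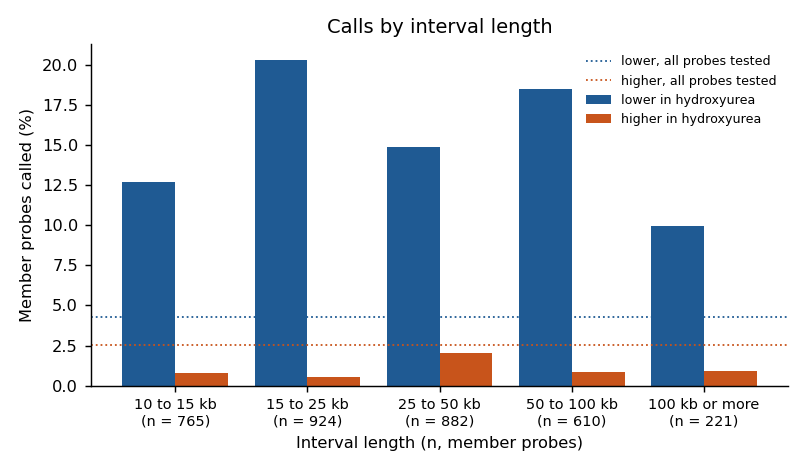
Share of member probes called lower or higher with hydroxyurea (%, y axis) by interval length (x axis, with the number of member probes); dotted lines mark 4.29% lower and 2.52% higher over all probes tested. Lower calls exceed their dotted line in every class, from 9.95% to 20.3%, and higher calls stay below theirs.

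The longest interval with a member, chr3:34003359-34537330, had 3 members on strand F with differences of -2.13 to 0.05, 1 of them called lower. Their mean was -3.00, -2.58, -2.70 and -2.81 in saline and -3.96, -3.36, -3.62 and -3.90 with hydroxyurea, without overlap (difference -0.94, SE 0.18, adjusted p = 0.017). The next, chr13:28477490-28985604, had 1 member on each strand. The R member was at 4.45 ± 0.39 in saline and 3.30 ± 0.37 with hydroxyurea (SD, n = 4 each; difference -1.15, SE 0.25, adjusted p = 0.028), and the F member differed by -0.40 (SE 0.26, adjusted p = 0.37). Inside that interval lies the third, chr13:28551902-28975446, whose 3 R members differed by 0.10 to 0.26 with 0 called.

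Intervals on either side of the length threshold had no calls. The shortest, chr1:138528250-138538250 with 10000 bases, had 9 members differing by -0.63 to 0.37, and chr1:55298349-55308374 with 10025 bases had 1 member at -0.82. Just outside, 2 intervals of 9950 bases had 3 probes between -0.27 and 0.32. At the detection threshold, 330 long-interval probes were well above background on exactly 3 arrays and 330 on exactly 4.

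Members lay on 20 chromosomes, 19 autosomes and X, and each of these held lower members. The share of lower members ran from 9.24% on chromosome 9 (11 of 119) to 23% on chromosome 6 (48 of 209). Median differences were lowest on chromosome 4 (-0.49, 49 of 244 lower) and chromosome 6 (-0.47). The X chromosome had a median of -0.09, nearest to 0, with both tails filled: 28 of its 155 members were lower (18.1%) and 8 were higher (5.16%), the latter in 5 intervals. Chromosome 10 also had 8 higher members, of 132 (6.06%), with 17 lower. Higher members were found on 12 of the 20 chromosomes. No test was made between chromosomes, since several probes of an interval enter each count.

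The authors' deposited table of differentially expressed probes listed 1346 probes, of which 358 (26.6%) were for intervals of 10 kb or more. All 358 were members here; 330 were lower and 28 higher in the authors' deposited table, with the sign found here in 358. Of these, 354 (98.9%) were called here, and they made up 60.3% of the 587 members called.

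Long noncoding RNA genes that have probes under their own names are given for comparison. Since the intervals were not matched to genes, some of these genes may also lie in member intervals. Of 24 such genes in a list, 12 were measured, by 19 probes with a median difference of 0.24; 2 probes were higher and 0 lower at an adjusted p under 0.05 in limma. One higher probe was for Pvt1, the noncoding neighbour of Myc and a known p53 target, with saline values of -0.85, -0.51, -1.0 and -0.23 and hydroxyurea values of 0.74, 0.64, -0.09 and 1.04. These did not overlap (difference 1.23, SE 0.27, adjusted p = 0.028), and a second Pvt1 probe differed by 0.63 (SE 0.19, adjusted p = 0.087). Airn, the imprinted antisense transcript of Igf2r, had a probe higher by 0.80 (SE 0.19, adjusted p = 0.042) and another at 0.22 (adjusted p = 0.40). The nuclear RNAs Malat1 and Neat1 differed by 0.59 (SE 0.68, adjusted p = 0.63) and 0.46 (SE 0.38, adjusted p = 0.49), and the 3 probes of the imprinted Meg3 by -0.58, 0.04 and 0.44, with none called.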

How the data were processed

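The authors' scanner files hold 1-colour Cy3 intensity values from Agilent Feature Extraction 11.5.1.1, per the file headers and the submitters' processing notes; the processed signal is background-subtracted and not scaled between arrays. The authors' deposited table of differentially expressed probes holds log2 values; the test behind it is not named in these sources, and it served for a count of overlap and the sign.

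Control spots and outlier spots were left out; 0 spots were saturated. Spots of a probe were averaged as log2 of the processed signal, minus the array's 75th percentile. Probes well above background on at least 4 of 8 arrays were tested with limma 3.58.1 in R 4.3.3 (lmFit, eBayes), hydroxyurea against saline, two-sided, with the Benjamini-Hochberg adjustment. In the fit, 9 members lack a value on 1 array. The number of arrays limits the precision, and SE is that of the fitted difference. The script was tested on simulated data.

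Members were chosen by length and detection, and members and lists were chosen with earlier results of these data known. Named probes were the 10 largest rises and falls among members called with groups that do not overlap, the 5 intervals with the lowest p in the strand test, the 3 longest intervals, those nearest the length threshold, those with the most members on a strand (3 of the 4 with 10 members), Cdkn1a, Ccng1 and a list of long noncoding RNA genes; intervals named for their number of lower or higher members were chosen after their values were seen. Probe symbols came from the files and from the RefSeq table of GRCm38.p6 (26582 probes matched). Alternatives numbered 19, of which 1 was added after the data were seen; for the strand test the brightest probe of each strand replaced the mean of the probes. The normexp alternative used the median foreground signal, with an offset of 50. Probe sequences and the mm9 genome were not used here, and no sequence is printed.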

Additional observations from a re-analysis of the deposited data

Results flagged for a closer look

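In 6 of 104 groups of 4 arrays examined for the named probes and interval strands, the highest or lowest array stood apart from the other 3 by more than Dixon's 95% critical value for the gap over the range of 4 values; chance gives about 1 in 20. In the hydroxyurea group these were hydroxyurea 2 at -2.35 for the chr12:81221532-81232030 strand F fall and at 0.37 for the chr2:104398943-104412968 strand R rise, and hydroxyurea 3 at -1.71 for the chr15:61984389-62102500 strand F rise. In the saline group they were saline 1 at -1.73 for the chr7:66562376-66579519 strand R fall, saline 2 at -3.35 for the chr3:137736327-137752677 strand F rise and saline 2 at 0.48 for the mean of the chr10:83185606-83225506 strand F members.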

How the results depend on the processing

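The members' median was -0.080 with normexp and 0.021 with no filter on dim probes; it stayed below 0 under the other alternatives, from -0.48 to -0.22, and below the median of all probes under all 19. Median centring moved the median of all probes to 0.14 and left the members' median 0.36 below it, as in the reported analysis. Non-overlapping members numbered 512 with normexp. Requiring all 8 arrays above background gave 338 lower (17%, beside 4.14% of all probes), 529 non-overlapping and 57 strand pairs of 203. No filter gave 327 lower, 13 higher and 59 strand pairs of 832. The mean of the probes gave 241 lower, 15 higher and 402 non-overlapping of 1546. With 2 arrays a group, slide 1 alone gave 12 lower, 1 higher, 1867 non-overlapping and 0 strand pairs, and slide 2 alone 1 lower, 0 higher, 1824 non-overlapping and 1 strand pair. Without both hydroxyurea 2 and 3 there were 941 lower, 94 higher and 1831 non-overlapping. Leaving out a single array gave 304 to 879 lower, 9 to 83 higher, 922 to 1376 non-overlapping, 76 to 120 strand pairs and medians from -0.44 to -0.28. Over all probes, leaving out a single array gave 1.97% to 8.61% lower and 0.839% to 7.2% higher. Lower counts of the members were below the reported 551 without each array other than hydroxyurea 2. The cause of these moves was not tested. Outside the slide-alone settings, 10 of 10 named falls and 5 of 5 strand differences kept their calls wherever they could be tested, and 1 of 10 named rises did; 0 results reversed. With all 8 arrays required above background, 2 of the falls, 6 of the rises and 2 of the strand pairs could be tested. No paired analysis was possible because the replicate numbers follow the order of deposit and the labels pair no samples. Many members are dim, so the size of a fall depends on the background correction and its end point is often a bound.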
